A study of Mus musculus with 6 samples.

Results

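The 10 genes described here, matrix metalloproteinases (MMPs) and their tissue inhibitors (TIMPs), are *Mmp2*, *Mmp8*, *Mmp9*, *Mmp12*, *Mmp13*, *Mmp14*, *Mmp19*, *Timp1*, *Timp2* and *Timp3*, out of 49315 genes counted. They were found by their symbols in the GENCODE M21 annotation, and each symbol matched 1 gene. *Mmp9* was chosen by its measured level, which was lower in Lpcat3 KOMac than in WT cells in these same libraries. Its difference between genotypes is therefore given as a description, without a test. The other 9 complete the family around it.

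MMPs are zinc-dependent enzymes that cut collagens and other proteins outside the cell. Most are made as inactive proenzymes, and TIMPs block the active enzymes by binding in the active site. In the liver, macrophages are known as a source of *Mmp12*, *Mmp13*, *Mmp14* and *Mmp9*, stellate cells of *Mmp2* and *Timp1*, and neutrophils of *Mmp8* and *Mmp9*. Together these genes govern how matrix is removed and how much of it stays after injury.

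The RNA came from F4/80-positive liver cells, isolated with magnetic beads. Most such cells in the liver are Kupffer cells, its resident macrophages. The donors were 3 WT and 3 Lpcat3 KOMac mice, which had all eaten a diet with 60% fat for 16 weeks as adults, and each mouse gave 1 library. Lpcat3 KOMac mice were Lpcat3 fl/fl and LysM Cre/+, and WT mice were Lpcat3 fl/fl littermates with LysM +/+, so both groups carried the floxed alleles and only one the Cre. LysM Cre is driven from the *Lyz2* locus, which is active in myeloid cells at large and not in Kupffer cells alone. *Lpcat3*, which adds arachidonic acid to phospholipids, was at 61.2 to 85.0 CPM (counts scaled to a common library size of 1e6) in WT and 19.4 to 33.3 CPM in Lpcat3 KOMac libraries. All CPM values were scaled by TMM, which corrects for library size and composition.

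Total counts per library lay between 44954224 and 71392812. The preparation held the defining transcripts of Kupffer cells: 8 of 8 were measured, with a summed level of 26215 to 35861 CPM in WT and 19638 to 28572 CPM in Lpcat3 KOMac libraries. Their log2 fold changes ran from -0.46 to -0.18, and *Clec4f* and *Folr2* had an unadjusted p under 0.05 (edgeR) and groups that did not overlap. Of the 16134 genes with enough counts to be tested, 1.57% were lower at that threshold, and 5.2% did not overlap with Lpcat3 KOMac the lower. Lpcat3 KOMac mouse 2 was low in *Marco* (148 CPM, 999 to 3168 elsewhere) and *Timd4* (123 CPM, 344 to 938 elsewhere). Hepatocyte transcripts were present as well. Summed over 7 genes they reached 22073 CPM in WT mouse 1 and 14093 CPM in Lpcat3 KOMac mouse 2, against 2144 to 5298 CPM in the other libraries. In bulk RNA of this kind, fewer cells of a type and less RNA per cell cannot be told apart.

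The 7 MMP members share a coding motif for the zinc-binding site. It is shown here because these enzymes depend on the zinc held there. The windows were read from GENCODE M21 transcripts (GRCm38), each from the longest open reading frame of the gene. Capitals mark the codons for the histidines that hold the zinc and for the catalytic glutamate beside the first of them.
Mmp2: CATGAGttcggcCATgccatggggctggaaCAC
Mmp8: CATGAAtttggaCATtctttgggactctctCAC
Mmp9: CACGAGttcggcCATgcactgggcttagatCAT
Mmp12: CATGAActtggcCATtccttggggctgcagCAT
Mmp13: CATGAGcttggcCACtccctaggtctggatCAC
Mmp14: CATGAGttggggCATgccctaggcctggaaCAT
Mmp19: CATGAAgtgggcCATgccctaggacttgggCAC

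The motif was found in all 7, starting between codon 213 (*Mmp19*) and codon 403 (*Mmp2*). *Mmp2* and *Mmp9*, the gelatinases, start it latest, at codons 403 and 401. Between members, 20 to 27 of the 33 bases were identical, fewest between *Mmp8* and *Mmp9* or *Mmp14*, and most between *Mmp2* and *Mmp14*.

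The TIMPs bear on the same site from the other side, since the amino end of the mature inhibitor sits on the zinc. Its conserved cysteines were read from the same transcripts, with their codons in capitals.
Timp1: TGTagcTGTgccccaccccaccca
Timp2: TGCagcTGCtccccggtgcacccg
Timp3: TGCacaTGCtctcccagccatccc

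Averaged over the 6 libraries, *Mmp12* and *Timp2* had the highest levels per length and *Timp1* the lowest. Levels of different genes were compared as CPM per kilobase of exon. *Mmp12*, the macrophage elastase, had a mean of 47.4 ± 22.7 CPM per kilobase (SD, n = 6), and *Timp2*, an inhibitor that also takes part in activating pro-MMP2, one of 47.1 ± 10.8 (SD, n = 6). Their order was not the same in all libraries. *Mmp12* was above *Timp2* in 3 of 3 Lpcat3 KOMac libraries (means 64.6 and 43.5 CPM per kilobase) and in 1 of 3 WT libraries (means 30.2 and 50.7). That WT library, of mouse 3, had them nearly level (47.6 and 47.3), and a difference in order between genotypes was not tested. *Mmp14*, a membrane-bound enzyme that activates pro-MMP2, followed at 22.1 ± 6.58 CPM per kilobase (SD, n = 6), below *Timp2* in 6 of 6 libraries.

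*Mmp13*, a collagenase, averaged 14.2 ± 11.0 CPM per kilobase (SD, n = 6) and *Mmp19*, which cuts basement membrane proteins, 11.0 ± 3.67 (SD, n = 6). *Mmp13* was the higher of the pair in 3 of 6 libraries only. Below them stood *Mmp9* (2.55 ± 1.86 CPM per kilobase), *Timp3* (2.32 ± 1.13) and *Mmp2* (2.15 ± 0.891), each with SD over 6 libraries. *Mmp9* was above *Timp3* in 3 of 3 WT libraries and in 0 of 3 Lpcat3 KOMac libraries, which restates the difference that chose *Mmp9*. *Timp3* was above *Mmp2* in 1 of 3 WT and 2 of 3 Lpcat3 KOMac libraries, and this pair did not differ beyond its spread. *Mmp8*, the neutrophil collagenase, and *Timp1*, an inhibitor induced in injured liver, came last at 0.853 ± 0.388 and 0.466 ± 0.157 CPM per kilobase (SD, n = 6). Among the 16134 genes with enough counts to be tested, 93.2% had a lower level per length than *Mmp12*, 42.6% a lower one than *Mmp9* and 19.1% a lower one than *Timp1*. These levels describe mRNA and say nothing of enzyme activity.

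Of the members, *Mmp13*, *Mmp12* and *Mmp8* lie in one MMP gene cluster on chromosome 9 of GRCm38, chr9:7272514-7699585, which holds 10 MMP genes. The levels along it were uneven. *Mmp27*, which is no member, had 37.7 to 68.7 CPM per kilobase (mean 52.5), beside a mean of 47.4 for *Mmp12*. It lies next to *Mmp8*, which had 0.476 to 1.57 CPM per kilobase. The other 6 genes of the cluster (*Mmp1b*, *Mmp3*, *Mmp1a*, *Mmp10*, *Mmp20* and *Mmp7*) had at most 1 count in any library. *Mmp12* shares 157 exonic bases with *Mmp1b* on the opposite strand, which had 0 counts.

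**Figure D1:**
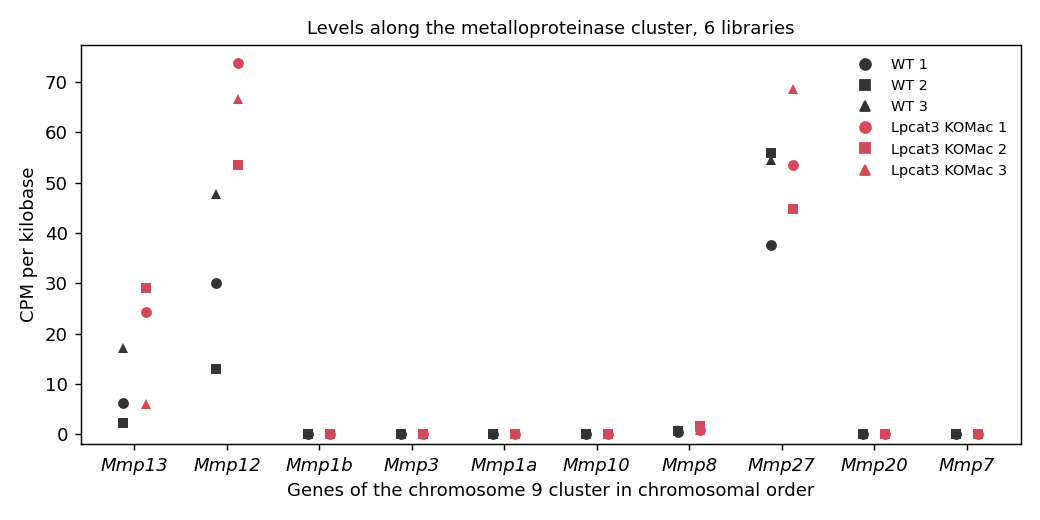
Level of each MMP gene of the chromosome 9 cluster, in CPM per kilobase of exon (linear axis), in chromosomal order, with 1 point per library (dark, WT; red, Lpcat3 KOMac; shape, mouse number). *Mmp12* and *Mmp27* reached 73.7 and 68.7 CPM per kilobase, *Mmp13* reached 29.1, *Mmp8* stayed at or below 1.57, and the other 6 genes lay at the bottom.

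*Mmp9* (ENSMUSG00000017737, chr2:164940780-164955850, plus strand), the gelatinase of macrophages and neutrophils, was the member with the lowest relative level in Lpcat3 KOMac cells. WT mice 1 to 3 had 9.33, 12.3 and 20.3 CPM, and Lpcat3 KOMac mice had 5.89, 2.93 and 3.38 CPM. Every Lpcat3 KOMac library lay below every WT library, and WT mouse 3 was the highest. The Lpcat3 KOMac mean was 29.1% of the WT mean (14.0 ± 5.67 against 4.07 ± 1.59 CPM, SD, n = 3 each). On the log2 scale the fitted difference was -1.78 (standard error 0.41). Leaving out single mice moved it between -2.10 (without Lpcat3 KOMac mouse 1) and -1.41 (without WT mouse 3). Over all 16134 genes tested, 5.2% had groups that did not overlap with Lpcat3 KOMac the lower. Since this contrast put *Mmp9* among the members, that share stands as background alone. It had 152 to 928 counts per library.

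The genes whose pattern over the 6 libraries was most like that of *Mmp9* were *Taf8* (Pearson r = 0.987), *Traf2* (r = 0.981) and *Cnpy4* (r = 0.977), out of 13000 genes with a mean of at least 1 CPM. Their range was narrow: *Taf8*, a subunit of the basal transcription factor TFIID, ran from 19.0 to 25.2 CPM. With 6 libraries of shared preparation, such correlations are a description only.

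Most neutrophil markers were scarce, and most of those tested had fitted values above 0. Of 12 neutrophil markers, 8 had enough counts, 6 of them above 0, with log2 fold changes from -0.39 to 1.63 and a median of 0.73, where the median over all genes tested was -0.04. *S100a8*, a calcium-binding protein abundant in neutrophils, was at 0.719 to 0.875 CPM in WT and 0.947 to 2.19 CPM in Lpcat3 KOMac libraries (unadjusted p = 0.0353, adjusted p = 0.9999, edgeR). For its partner *S100a9* the log2 fold change came to 1.01 (standard error 0.42). For the chemokine receptor *Cxcr2*, which had at most 0.270 CPM and 6 to 15 counts per library, it came to 0.60 (standard error 0.33) without overlap. By comparison, 1.07% of all genes tested were higher at an unadjusted p under 0.05 in edgeR. Groups that did not overlap, with Lpcat3 KOMac the higher, were found for 2.29%. *Ly6g*, a defining surface marker of neutrophils, had at most 3 counts in any library, and *Mpo*, *Camp*, *Ltf* and *Ngp*, of neutrophil granules, at most 9, 11, 36 and 39. *Fpr1* (log2 fold change -0.39, standard error 0.21) and *Csf3r* (-0.17, standard error 0.33), which macrophages also express, made up most of the summed level of 264 to 447 CPM in WT and 231 to 328 CPM in Lpcat3 KOMac libraries. The part of these cells in the level of *Mmp9* was not tested.

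*Mmp12* (ENSMUSG00000049723, chr9:7344381-7369499, plus strand) was the one member besides *Mmp9* whose groups did not overlap, and it went the other way. WT mice 1 to 3 had 217, 94.3 and 345 CPM, and Lpcat3 KOMac mice 534, 387 and 482 CPM. WT mouse 2 was the lowest and differed from WT mouse 3 by more than WT mouse 3 did from Lpcat3 KOMac mouse 2. The means were 219 ± 125 and 468 ± 74.4 CPM (SD, n = 3 each), a 2.14-fold higher level. EdgeR's quasi-likelihood test gave a log2 fold change of 1.10 (standard error 0.46, unadjusted p = 0.0587, adjusted p = 0.9999 by Benjamini-Hochberg). The exact permutation test gave a two-sided p of 0.1, the smallest that 3 mice against 3 allow. Over all genes tested, 2.29% had groups that did not overlap with Lpcat3 KOMac the higher, and among the 9 members other than *Mmp9* it was 1.

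The size of this difference depended on single mice. It was 0.73 (standard error 0.26) without WT mouse 2 and 1.59 (standard error 0.41) without WT mouse 3, with unadjusted p-values of 0.0375 and 0.0120 in edgeR and adjusted p-values of 0.9999 and 0.996. With the replicate number as a block it was 1.27 (unadjusted p = 0.0247, adjusted p = 0.9999, edgeR). It stayed above 0 in all 13 alternatives tried.

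*Gpnmb*, a glycoprotein of lipid-associated macrophages, a state found in fatty liver and obese fat, was among the 3 genes most like *Mmp12* over the 6 libraries (r = 0.989), with *Emp1* (r = 0.996) and *Slc6a8* (r = 0.993). Its CPM values were 89.0, 22.2 and 164 in the WT mice and 237, 182 and 199 in the Lpcat3 KOMac mice, again without overlap (log2 fold change 1.17, standard error 0.68, unadjusted p = 0.141, edgeR). All 7 markers of the state had enough counts, and they did not all follow *Mmp12*: *Cd63*, a lysosomal membrane protein, was highest in WT mouse 3 (172 CPM). *Spp1* did not overlap between groups either (11.9, 2.52 and 14.5 CPM in WT, 39.4, 44.1 and 18.1 CPM in Lpcat3 KOMac mice 1 to 3). Its lowest Lpcat3 KOMac library was that of mouse 3, where *Mmp12* was lowest in mouse 2. Over all genes tested, 2.29% had groups apart with Lpcat3 KOMac the higher. The log2 fold changes of the 7 markers ran from 0.47 to 1.81 with a median of 0.85, against -0.04 over all genes tested. *Spp1*, the secreted protein osteopontin, had an unadjusted p under 0.05 (log2 fold change 1.81, standard error 0.71, unadjusted p = 0.0463, adjusted p = 0.9999, edgeR), and the other 6 did not. At that threshold, 1.07% of all genes tested were higher. The summed level of the 7 was 367, 162 and 680 CPM in WT and 705, 718 and 678 CPM in Lpcat3 KOMac mice 1 to 3, so WT mouse 3 lay within the Lpcat3 KOMac range. Whether *Mmp12* differs apart from this group of genes was not tested.

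**Figure D2:**
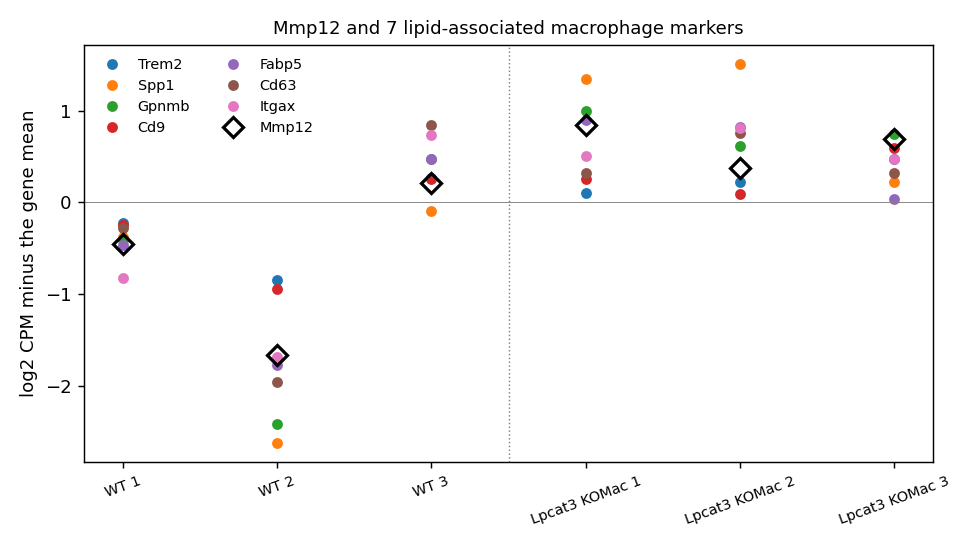
Log2 CPM of *Mmp12* (open diamonds) and of 7 lipid-associated macrophage markers (points), each minus its own mean over the 6 libraries, by library. For *Mmp12* and the 7 markers alike, WT mouse 2 was the lowest library, and *Mmp12* in the 3 Lpcat3 KOMac libraries (387 to 534 CPM) lay above the 3 WT libraries (94.3 to 345 CPM).

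*Mmp13* (ENSMUSG00000050578, chr9:7272514-7283331, plus strand), the main collagenase of the mouse, varied most among the members, with a 13.3-fold range between libraries. WT mice 1 to 3 had 16.8, 5.85 and 45.6 CPM, and Lpcat3 KOMac mice 65.1, 77.9 and 16.2 CPM. The groups overlapped: Lpcat3 KOMac mouse 3 lay below WT mice 1 and 3. Its log2 fold change of 1.22 had a standard error of 0.90 (unadjusted p = 0.227, adjusted p = 0.9999, edgeR). It was 0.77 without WT mouse 2 and 2.23 without WT mouse 3, the lowest and highest with 1 mouse left out. *Siglecf*, *Clic4* and *Slc9a7* had the most similar pattern (r = 0.995, 0.992 and 0.986 over 6 libraries). *Mmp12* and *Mmp13* had an r of 0.78 with each other, and Lpcat3 KOMac mouse 3 set them apart, where the ratio of their levels per length was 11.0 against 1.84 to 5.95 in the other libraries.

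Promoter windows of the members were searched for the AP-1 motif TGAGTCA, and *Mmp12* and *Mmp13* held a match. AP-1 is a family of transcription factors known to act on many MMP genes. The windows span 250 bases before to 50 after each RefSeq start (GRCm38.p6). Of the 10 members, 7 had a window, and *Mmp2*, *Mmp9* and *Mmp19* had none. The motif was searched on both strands, and 5.2% of all 32851 windows held it. Capitals mark the match. In *Mmp13*, chr9:7272264-7272563 on the plus strand, it begins 35 bases before the start and reads on the minus strand. In *Mmp12*, chr9:7347124-7347423 on the plus strand, it begins 44 bases before a start that lies inside the gene as counted here. The window of the other *Mmp12* start held no match.
Mmp13: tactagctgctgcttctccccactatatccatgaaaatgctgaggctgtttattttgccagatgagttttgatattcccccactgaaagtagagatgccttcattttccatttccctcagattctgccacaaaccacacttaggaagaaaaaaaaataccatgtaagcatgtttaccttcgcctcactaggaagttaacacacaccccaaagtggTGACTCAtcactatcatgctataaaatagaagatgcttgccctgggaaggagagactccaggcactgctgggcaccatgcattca
Mmp12: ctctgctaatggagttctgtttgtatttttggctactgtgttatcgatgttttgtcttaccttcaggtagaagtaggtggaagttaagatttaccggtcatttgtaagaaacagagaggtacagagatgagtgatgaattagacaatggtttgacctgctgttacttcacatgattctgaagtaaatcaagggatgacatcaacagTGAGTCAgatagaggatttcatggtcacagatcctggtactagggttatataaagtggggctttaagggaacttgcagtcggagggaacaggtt

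These matches are letters in a window and describe no binding. Of 8 genes for AP-1 and related subunits, all had enough counts, with a median log2 fold change of -0.03. *Fosl1* was low but did not overlap between groups (0.319 to 0.481 CPM in WT, 0.656 to 0.765 CPM in Lpcat3 KOMac, log2 fold change 0.86, standard error 0.27, unadjusted p = 0.0207, edgeR). *Atf3* also passed at the unadjusted threshold (0.58, standard error 0.23, unadjusted p = 0.0448, adjusted p = 0.9999, edgeR), as did *Fosl1* with the same adjusted p. Over all genes tested, 1.07% were higher at that threshold, and 2.29% had groups that did not overlap with Lpcat3 KOMac the higher. A link of these 2 genes to *Mmp12* or *Mmp13* was not tested. The most abundant subunits per length, *Junb*, *Jund* and *Fos*, had log2 fold changes of -0.34, -0.06 and -0.09 and overlapping groups.

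*Mmp14* (ENSMUSG00000000957, chr14:54431612-54441265, plus strand) was at 50.9, 79.5 and 116 CPM in the WT mice and 125, 84.1 and 114 CPM in the Lpcat3 KOMac mice, in the order of mouse number. The groups overlapped, with WT mouse 1 lowest. The log2 fold change was 0.40 (standard error 0.32, unadjusted p = 0.268, adjusted p = 0.9999, edgeR), between 0.15 and 0.73 with single mice left out. It was highest without WT mouse 3, where the unadjusted p was 0.0469 and the adjusted p 0.996 in edgeR. *Dot1l*, *Dubr* and *4930404N11Rik* were most like it over the 6 libraries (r = 0.991, 0.991 and 0.990).

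*Mmp2* (ENSMUSG00000031740, chr8:92827291-92853420, plus strand) had no direction that held. Its levels were 5.37, 5.09 and 12.0 CPM in WT and 5.70, 9.99 and 5.27 CPM in Lpcat3 KOMac mice 1 to 3, so that WT mouse 3 and Lpcat3 KOMac mouse 2 stood above the other 4 libraries. The log2 fold change of -0.10 (standard error 0.44, unadjusted p = 0.825, edgeR) turned positive when WT mouse 3, Lpcat3 KOMac mouse 1 or Lpcat3 KOMac mouse 3 was left out (0.42, 0.07 and 0.10). *Mmp2* is known from stellate cells. Of 9 stellate cell markers, all with enough counts, 0 had an unadjusted p under 0.05 in edgeR, and their summed level was 309 to 337 CPM in WT and 332 to 369 CPM in Lpcat3 KOMac libraries. *Ecm1* made up the largest part of that sum (140 to 193 CPM). The log2 fold changes ran from -0.10 (*Ecm1*) to 0.50. *Pdgfrb* did not overlap between groups (4.29 to 4.91 CPM in WT, 5.15 to 6.27 CPM in Lpcat3 KOMac), as did 2.29% of all genes tested, with Lpcat3 KOMac the higher. *Gm15772*, *Sirpb1b* and *Sh3d21* were the genes most like *Mmp2* (r = 0.989, 0.970 and 0.968).

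*Mmp8* (ENSMUSG00000005800, chr9:7558456-7568485, plus strand) was low throughout, with 65 to 197 counts per library. WT libraries had 1.15, 1.30 and 2.06 CPM, and Lpcat3 KOMac libraries 2.07, 3.80 and 2.04 CPM. WT mouse 3 lay between the lower Lpcat3 KOMac mice, so that the groups overlapped by this one mouse. Its log2 fold change was 0.81 (standard error 0.38, unadjusted p = 0.0793, adjusted p = 0.9999, edgeR). Without WT mouse 3 it was 1.10 (unadjusted p = 0.0416, adjusted p = 0.996, edgeR). The lowest value of all settings, 0.30, came from leaving out WT mouse 1 and Lpcat3 KOMac mouse 2 together, the libraries with the most hepatocyte transcripts. *Ddx52*, *Sirpb1c* and *Fzd7* followed *Mmp8* most closely (r = 0.984, 0.981 and 0.975).

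*Mmp19* (ENSMUSG00000025355, chr10:128790953-128800824, plus strand) had 45.1, 21.0 and 32.4 CPM in WT and 44.2, 54.7 and 28.4 CPM in Lpcat3 KOMac mice 1 to 3, with overlapping groups. The log2 fold change was 0.37 (standard error 0.35, unadjusted p = 0.340, adjusted p = 0.9999, edgeR). *Mmp19* shares 789 exonic bases with *Tmem198b* on the opposite strand, which had up to 535 counts in a library against at least 1050 for *Mmp19*, and without a stated strand setting the reads of the pair cannot be told apart there. The genes most like it were *Nt5e*, *Wnt2* and *Dkk3* (r = 0.991, 0.990 and 0.990). *Wnt2* is a signal that endothelial cells of the liver sinusoid send to hepatocytes.

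**Figure D3:**
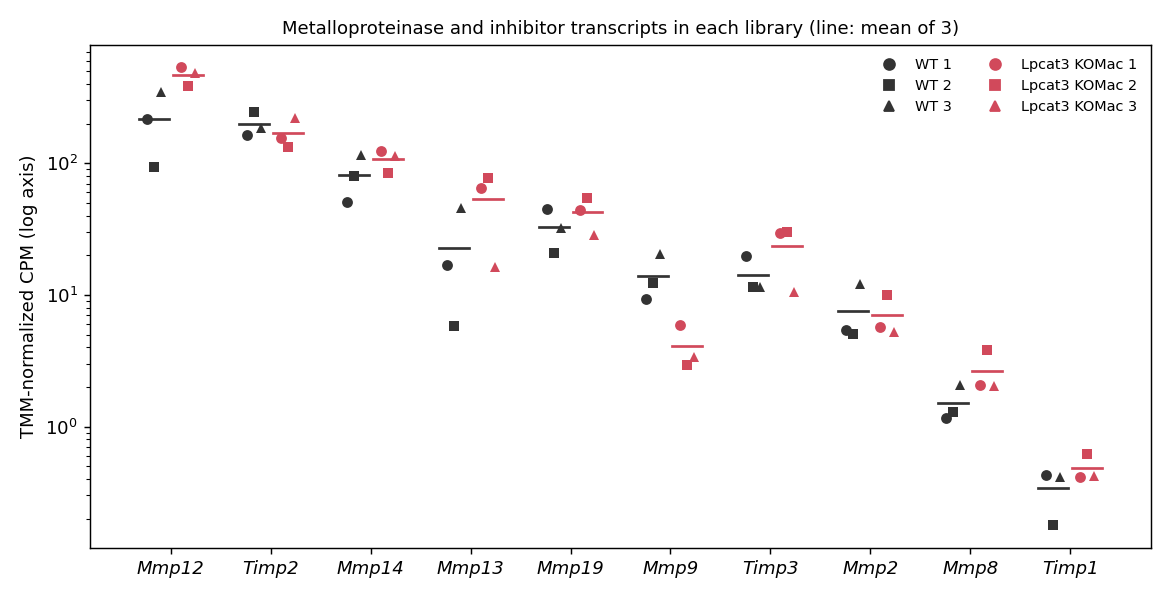
TMM-normalized CPM (log axis) of the 10 members in each library, ordered by mean level per length, with WT dark, Lpcat3 KOMac red, shapes for mouse number and a line at each mean of 3. The groups are apart for *Mmp9* (WT 9.33 to 20.3, Lpcat3 KOMac 2.93 to 5.89 CPM) and *Mmp12* (94.3 to 345, 387 to 534 CPM), and overlap for the other 8.

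*Timp2* (ENSMUSG00000017466, chr11:118301069-118355740, minus strand) was the most abundant of the 3 TIMPs. It made up 88.6% to 97.5% of the summed level per length of the 3 TIMPs in every library. WT mice 1 to 3 had 163, 245 and 184 CPM, and Lpcat3 KOMac mice 155, 134 and 221 CPM. The groups overlapped, since Lpcat3 KOMac mouse 3 lay above WT mice 1 and 3. Its log2 fold change was -0.22 (standard error 0.24, unadjusted p = 0.396, adjusted p = 0.9999, edgeR), and the range between libraries was 1.83-fold, the narrowest of the members. *Timp2* ran against *Mmp19* over the 6 libraries (r = -0.98) and had *Syp*, *Trappc9* and *Jup* as its most similar genes (r = 0.992, 0.991 and 0.987).

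*Timp3* (ENSMUSG00000020044, chr10:86300372-86349506, plus strand), which binds to matrix and also inhibits the sheddase ADAM17, split both groups. WT mouse 1 had 19.8 CPM and WT mice 2 and 3 had 11.5 each, while Lpcat3 KOMac mice 1 and 2 had 29.6 and 30.2 and mouse 3 had 10.5 CPM. The log2 fold change was 0.72 (standard error 0.46, unadjusted p = 0.171, adjusted p = 0.9999, edgeR). Without Lpcat3 KOMac mouse 3 it was 1.09 (unadjusted p = 0.0165, adjusted p = 0.9999, edgeR). It shares 1733 exonic bases with *Syn3* on the opposite strand, which had at most 34 counts. *AU021092*, *Fam57a* and *Il6st* followed the same pattern (r = 0.988, 0.986 and 0.985).

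Some endothelial transcripts were highest in Lpcat3 KOMac mice 1 and 2, as *Timp3* was. Of 8 sinusoidal endothelial markers, *Kdr*, *Ptprb* and *Gpr182* had an unadjusted p under 0.05, all higher in Lpcat3 KOMac cells (log2 fold changes 0.79, 0.77 and 0.73, unadjusted p = 0.0287, 0.0277 and 0.0415, adjusted p = 0.9999, edgeR), where 1.07% of all genes tested were higher at that threshold. *Pecam1*, an adhesion protein of all endothelium, stood at -0.24 (standard error 0.15) and *Stab2*, a scavenger receptor, at 0.02 (standard error 0.16). *Kdr*, a receptor for vascular growth factors, was at 169 and 131 CPM in Lpcat3 KOMac mice 1 and 2 and at 91.5 CPM in mouse 3, against 62.3 to 95.7 CPM in WT. The summed level of the 8 markers was 1046 to 1176 CPM in WT and 1111 to 1478 CPM in Lpcat3 KOMac libraries. The part of endothelial RNA in the level of *Timp3* was not tested.

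*Timp1* (ENSMUSG00000001131, chrX:20870166-20874735, plus strand) rested on few reads, with 9 to 32 counts per library. WT libraries had 0.431, 0.180 and 0.416 CPM, and Lpcat3 KOMac libraries 0.413, 0.617 and 0.425 CPM. The groups overlapped, and the log2 fold change was 0.50 (standard error 0.42, unadjusted p = 0.284, adjusted p = 0.9999, edgeR). *Adamts13*, a protease that stellate cells make, had nearly the same pattern (r = 0.999, 1.40 to 4.42 CPM), followed by *Dll1* and *Robo2* (r = 0.995 and 0.990). *Timp1* lies within *Syn1* on the opposite strand but shares no exonic base with it. *Syn1* had up to 2731 counts in a library. Without a stated strand setting, any reads from unspliced *Syn1* RNA could not be told apart from those of *Timp1*.

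Of the 9 members other than *Mmp9*, 0 had an adjusted p under 0.05 in edgeR, as had 0 of 16134 genes (0%). In edgeR the deleted gene *Lpcat3* was thus not called either, although the paper counts it among the few genes that differed in these cells. Its level was 61.2 to 85.0 CPM in WT and 19.4 to 33.3 CPM in Lpcat3 KOMac libraries. The 0 of 9 members therefore cannot be read as the absence of a difference. DESeq2 called 11 of 15000 genes, with 0 of these 9 members among them. At an unadjusted p under 0.05, edgeR had 426 genes, 1.57% of those tested being lower and 1.07% higher in Lpcat3 KOMac cells, and 0 of the 9 members. In DESeq2's Wald test *Mmp12* (unadjusted p = 0.0267, adjusted p = 0.9999) and *Mmp8* (unadjusted p = 0.0420, adjusted p = 0.9999) were under that threshold, as were 566 genes in that test, 1.18% of its 27452 genes being higher in Lpcat3 KOMac cells. Besides *Mmp12*, the two-sided exact permutation test gave p from 0.2 (*Mmp8*) to 0.9 (*Mmp2*). Of the 9, the fitted difference was above 0 for 7 and below 0 for *Mmp2* and *Timp2*. The median over the 10 members was 0.45, against -0.04 over all genes tested.

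**Figure D4:**
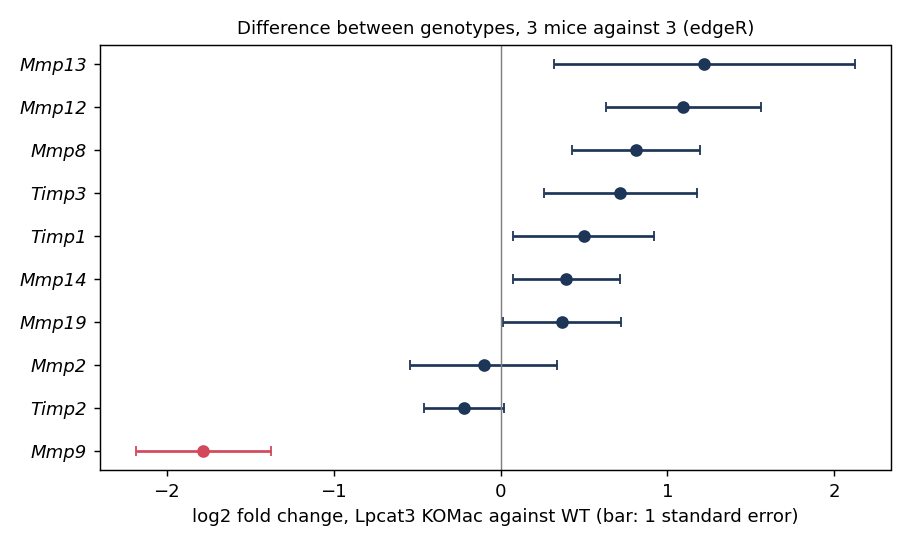
Log2 fold change of the 10 members, Lpcat3 KOMac against WT, from edgeR (points) with 1 standard error to each side (bars). *Mmp9* (red, chosen by this difference) stands at -1.78, and the other 9 run from -0.22 (*Timp2*) to 1.22 (*Mmp13*), where the bar is longest.

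Summed per length, the 7 MMP members reached 66.1, 45.4 and 111 CPM per kilobase in WT mice 1 to 3 and 144, 124 and 111 in Lpcat3 KOMac mice 1 to 3. The 3 TIMPs reached 44.9, 64.6 and 49.1 in WT and 43.8, 38.7 and 58.4 in Lpcat3 KOMac mice. The ratio of the MMP sum to the TIMP sum ran from 0.703 to 2.26 in WT and from 1.90 to 3.30 in Lpcat3 KOMac libraries, so the groups overlapped. *Mmp12* alone made up 28.7% to 60.0% of the MMP sum in a library.

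**Figure D5:**
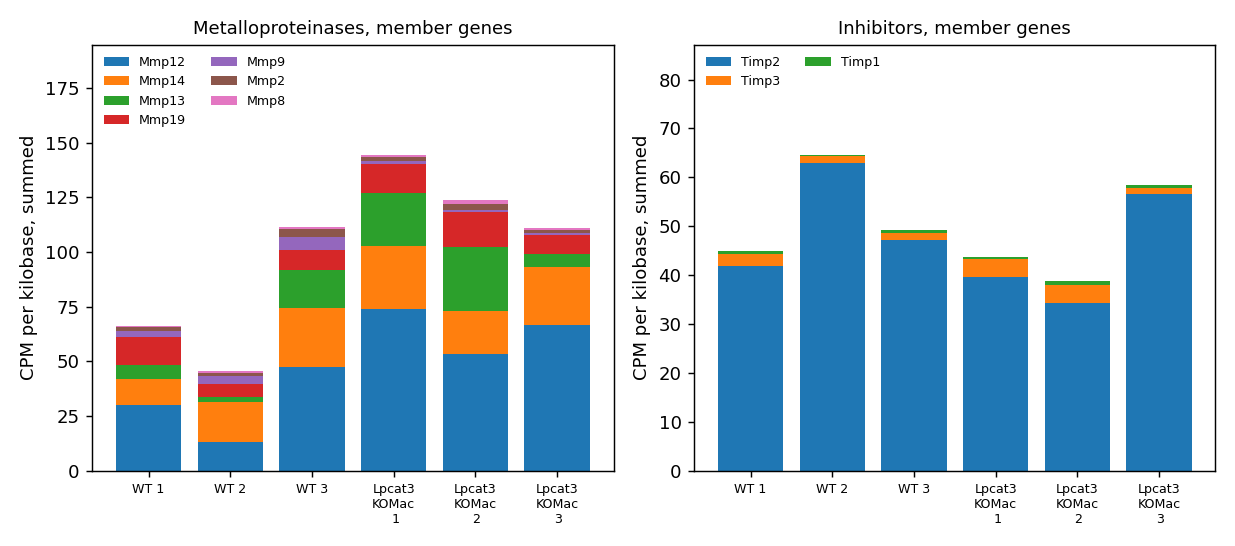
Summed level per length (CPM per kilobase, linear axis from 0) of the 7 MMP members (left) and the 3 TIMP members (right) in each library, with a color per gene. *Mmp12* held 28.7% to 60.0% of the left bars and *Timp2* 88.6% to 97.5% of the right bars, and the MMP bar was lowest in WT mouse 2 (45.4).

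Of the 16 other MMP genes, 4 had enough counts to be tested, 0 had an unadjusted p under 0.05 in edgeR, and 9 had at most 3 counts in any library. *Mmp27* (log2 fold change 0.17, standard error 0.22), *Mmp15* (-0.01, standard error 1.06) and *Mmp23* (0.13, standard error 0.30) had the highest levels. *Mmp15*, a membrane-bound enzyme, was at 17.6 CPM in WT mouse 1 and 12.3 CPM in Lpcat3 KOMac mouse 2 against 1.31 to 4.70 CPM elsewhere, and the former 2 libraries were also those richest in hepatocyte transcripts. Among 5 other inhibitors, *Pzp* and *Tfpi2* were highest in the same 2 libraries, with log2 fold changes of -0.20 and -0.16 and standard errors over 1. *Pzp*, a broad protease inhibitor of plasma, had a mean of 89.4 CPM per kilobase, above *Timp2*, and ranged from 20.9 to 239. *Reck*, a membrane-anchored inhibitor of MMP9 and MMP14, was low but did not overlap (0.599 to 1.08 CPM in WT, 1.14 to 1.41 CPM in Lpcat3 KOMac, log2 fold change 0.57, standard error 0.30, unadjusted p = 0.112, edgeR). Groups were likewise apart, with Lpcat3 KOMac the higher, for 2.29% of all genes tested. *Timp4* had at most 3 counts.

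Of 15 genes that activate, bind or clear MMPs, 13 had enough counts and 0 had an unadjusted p under 0.05 in edgeR, with log2 fold changes from -0.74 to 0.42. The highest mean levels per length were those of *Bsg*, which induces MMPs in neighboring cells (-0.13, standard error 0.15), *Cd44*, which holds MMP9 at the cell surface (-0.04, standard error 0.15), and *Plg*, the precursor of plasmin and a hepatocyte product (-0.38, standard error 1.07). The mean of *Plg* rested on WT mouse 1 (883 CPM) and Lpcat3 KOMac mouse 2 (413 CPM), against 67.9 to 203 CPM elsewhere. *Lrp1*, a receptor that clears MMPs and the next in level, had 1082 to 2475 CPM (-0.04, standard error 0.38). Of 14 genes for matrix proteins that MMPs cut, all had enough counts and 0 had an unadjusted p under 0.05 in edgeR. All 14 fitted values were above 0, from 0.19 to 0.90, and WT mouse 2 was the lowest library for each gene. Their summed level was 789, 195 and 451 CPM in WT mice 1 to 3. In Lpcat3 KOMac mice 1 to 3 it was 748, 694 and 454 CPM, so the groups overlapped. Among these genes *Lamc1*, a laminin chain, did not overlap between groups (4.29 to 8.77 CPM in WT, 9.01 to 13.3 CPM in Lpcat3 KOMac, log2 fold change 0.71, standard error 0.32, unadjusted p = 0.0682, edgeR). Such a gap, with Lpcat3 KOMac the higher, was found for 2.29% of all genes tested. The most abundant matrix genes per length were *Dcn* (0.36, standard error 0.41), *Fn1* (0.19, standard error 0.65) and *Sparc* (0.58, standard error 0.42). Of 5 sheddases and proteoglycan-cutting enzymes that TIMP3 inhibits, *Adamts1* had an unadjusted p under 0.05 (log2 fold change 0.88, standard error 0.34, unadjusted p = 0.0431, adjusted p = 0.9999, edgeR). At that threshold, 1.07% of all genes tested were higher. The more abundant *Adam10* and *Adam17* stood at -0.01 (standard error 0.10) and -0.12 (standard error 0.20).

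Markers of other leukocytes were measured as well, since these too make MMPs. Of 6 monocyte markers, *Chil3* and *F13a1* had an unadjusted p under 0.05 and were higher in Lpcat3 KOMac cells (log2 fold changes 1.70 and 1.05, adjusted p = 0.9999, edgeR). Over all genes tested, 1.07% were higher at that threshold. The summed level of the 6 was 96.6 to 162 CPM in WT and 92.6 to 166 CPM in Lpcat3 KOMac libraries. Markers of T, NK and B cells summed to at most 6.69 CPM and those of dendritic cells to at most 11.7 CPM in any library. *Cd3d*, at 0.0770 to 0.255 CPM, was the one gene of both lists with an unadjusted p under 0.05.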

How the data were processed

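RNA from liver F4/80-positive cells of 6 mice was sequenced, 1 library per mouse. The deposited values are raw read counts per gene, 1 table per library. Per the submitters' processing notes, Trimmomatic 0.36, STAR 2.5.2b and featureCounts of Subread 1.5.2 were used with GRCm38. The strand setting was not given in the sources used here. Every label gave a library's genotype and mouse number.

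The counts were joined, and genes passing filterByExpr (minimum count 10, 16134 genes) were fitted with edgeR 4.0.16 in R 4.3.3 (TMM, robust quasi-likelihood test, genotype only, Benjamini-Hochberg adjustment over all genes tested). The study names the Mann-Whitney test for its group comparisons, and a count model was used here because the values are counts. DESeq2 1.42.0 was an alternative. Exact permutation tests on mean log2 CPM used scipy 1.17.1 under Python 3.11.15. Other alternatives changed the scaling, the filter, a length offset, the replicate block and the libraries used. The fits were also run on simulated counts. Their spread was fixed and not taken from these mice, so that run does not measure how the fits perform here. Standard errors are those of the fitted log2 fold changes. Total counts per library were 44954224 to 71392812.

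The members, gene lists and tests were chosen with earlier results of these data known. Named are the members, the list genes with an unadjusted p under 0.05 or groups that did not overlap, up to 3 genes per list with the highest level per length, and the 3 genes most correlated with each member. From these, the text gives the ones that bear on the members. *Ly6g*, *Mpo*, *Camp*, *Ltf*, *Ngp* and *Timp4* were named for their low counts, and *Lrp1* for its level beside *Plg*, after their values were seen.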

Additional observations from a re-analysis of the deposited data

How the results depend on the processing

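Of 130 values of the members' log2 fold changes (13 alternatives each), 127 kept their direction. No member other than *Mmp9*, which was not tested, had an adjusted p under 0.05 in any of them. The 3 that turned were *Mmp2*, at 0.42 without WT mouse 3, 0.07 without Lpcat3 KOMac mouse 1 and 0.10 without Lpcat3 KOMac mouse 3, and its lowest leave-one-out value was -0.43. With each mouse left out in turn, *Mmp9* ranged from -2.10 to -1.41. Adjusted p-values called 0 genes in every edgeR setting, leave-one-out fits included (0 to 0), and 11 in DESeq2. The number of members besides *Mmp9* with an unadjusted p under 0.05 was 0 in the fit reported, 1 with total counts and no TMM factor (*Mmp12*), 2 in DESeq2 (*Mmp12*, *Mmp8*), 1 with the replicate block (*Mmp12*), and 0 to 3 with 1 mouse left out, 3 being without WT mouse 3 (*Mmp12*, *Mmp14*, *Mmp8*). The cause of these differences was not tested. The count of all genes at that threshold, 426, became 318 with total counts, 566 in DESeq2, 543 without WT mouse 3, 138 with the replicate block, 2028 without WT mouse 1, 227 without WT mouse 2, 179 without Lpcat3 KOMac mouse 1, 245 without Lpcat3 KOMac mouse 2 and 1767 without both WT mouse 1 and Lpcat3 KOMac mouse 2. The replicate block gave *Mmp9* a value of -1.78. Whether the mouse numbers pair the libraries could not be settled. The mean correlation of deviations from the group means was -0.18 for the same number and 0.11 for different numbers. Single values ran from -0.60 to 0.36 and from -0.58 to 0.67. Deviations sum to 0 within a group of 3, so these values are tied to each other. The order of members by level was the same for 10 of 10 with total counts. Differences with 3 mice a group had to exceed the spread between mice, which was widest for *Mmp13*.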
